A study of Homo sapiens with 12 samples.

Results

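The comparison described here sets CCD-18Co human colon myofibroblasts that received 1,25(OH)2D3 and Wnt3A together against cells that received only the solvents. It was chosen by treatment label alone: the 3 libraries labelled with both agents and the 3 vehicle libraries, 6 of the 12 libraries in the series, paired by the number of the experiment (1 to 3). The combination was 100 nM 1,25(OH)2D3 with 100 ng/ml recombinant human Wnt3A for 24 h. The vehicle group had ethanol, the solvent of 1,25(OH)2D3, and serum albumin in phosphate-buffered saline, the solvent of Wnt3A. The other 6 libraries came from cells given 1,25(OH)2D3 alone or Wnt3A alone at these doses. They show where the combination differs from each agent. They also enter the filter, the scaling and the estimate of spread, because all 12 libraries were fitted together. A fit of the 6 combination and vehicle libraries alone, with the experiment as a term, called 3849 genes instead of 4082. All cells grew in medium with foetal bovine serum, which itself holds growth factors. CCD-18Co is an established line from normal colon, so the 3 experiments are repeats in the cells of 1 line and not in different donors. The p-values do not measure the whole spread between those repeats. They rest on what is left of it, over all 4 treatments, once differences shared by the libraries of an experiment are taken out. The differences were measured for all genes: 12216 of the 21893 genes in the table passed the filter on low counts and were tested.

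1,25(OH)2D3 (calcitriol) is the active vitamin D hormone. It binds the vitamin D receptor, a nuclear receptor that pairs with a retinoid X receptor on DNA and changes the transcription of its target genes. Wnt3A is a secreted canonical Wnt protein: it binds Frizzled receptors and LRP co-receptors, β-catenin is then spared from degradation, enters the nucleus and acts with TCF/LEF factors, and many of the first genes to respond encode inhibitors of the pathway. Myofibroblasts lie beneath the intestinal crypts, deposit matrix, contract, and secrete the Wnt, BMP and growth factor signals that reach the epithelium.

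The deposited values behaved as aligned bases and were divided by 40, the read length, to give reads. The vehicle libraries held 5782473 to 6191675 reads and the combination libraries 5404672 to 6261100. Levels are CPM, read counts scaled to a common library total after TMM scaling. A gene is called higher or lower where edgeR's quasi-likelihood test, with the experiment as a block and Benjamini-Hochberg adjustment over all 12216 genes, gave an adjusted p under 0.05. Fold changes are on the log2 scale, and their standard error (SE) comes from that test. A number alone in brackets after a gene is its log2 fold change between the combination and vehicle, and every gene said to rise or fall was called. Fibroblast markers were abundant in every library: the summed level of 14 of them was 31600 to 34300 CPM with vehicle and 36900 to 37400 CPM with both agents, and none of them was at 0. Markers of unrelated cell types were low, with sums of 28.9 to 36.1 CPM for 12 epithelial genes, 13.8 to 31.0 CPM for 8 endothelial genes, 192 to 229 CPM for 12 blood cell genes and 128 to 171 CPM for 10 genes of enteric neurons and glia over the 6 libraries. Smooth muscle markers, several of which myofibroblasts share, summed to 663 to 939 CPM with vehicle and 638 to 837 CPM with both agents over 8 genes. The epithelial genes *CDH1*, *VIL1* and *MUC2* had no read in any of these 6 libraries. RNA levels were measured in bulk, so a change in the share of cells in a given state cannot be told apart from a change in RNA per cell.

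The combination changed the expression of 4082 genes, 33.4% of those tested. Of these, 2116 were higher than with vehicle (17.3% of tested genes) and 1966 were lower (16.1%). The counts given below for every gene list are to be read against these shares. Most changes were small: the median change of the called genes was 1.29-fold, and 1247 of the rises and 1537 of the falls were smaller than 0.5 on the log2 scale. Large changes were mostly increases. At least 2-fold increases were seen for 208 genes and at least 2-fold decreases for 82, and 12 rises but no fall reached 3 on the log2 scale. For 3958 of the 4082 genes, the direction was the same in all 3 pairs of libraries. The 3 combination libraries were all above the 3 vehicle libraries for 2414 genes (19.8% of those tested) and all below them for 2162 (17.7%). The genes called higher took 17.42% to 18.43% of the reads in the vehicle libraries and 24.24% to 24.78% in the combination libraries, whereas the genes called lower took 33.33% to 34.28% and 27.12% to 27.6%. Without the block, edgeR called 1622 genes higher and 1304 lower, and all 2926 were among the 4082 with the same direction. DESeq2 without the block called 2234.

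**Figure D1:**
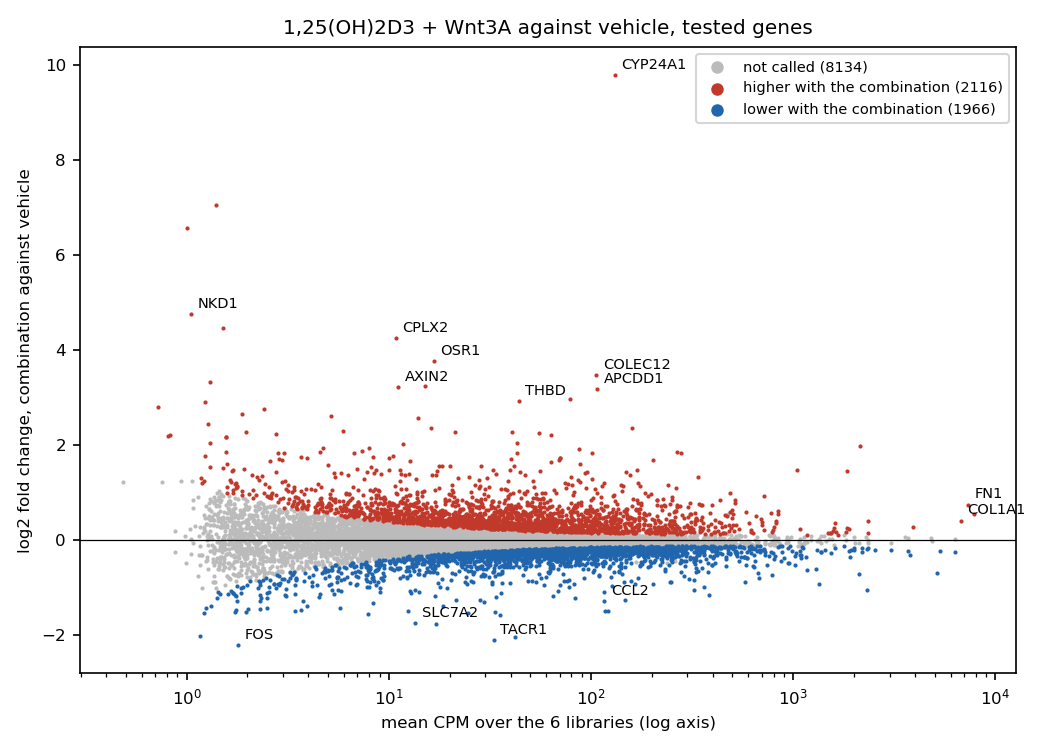
Each point is 1 of the 12216 tested genes, with its mean level over the 6 libraries in CPM on a log axis and its log2 fold change between the combination and vehicle. The 2116 genes called higher (red) reach a log2 fold change of 9.78 for CYP24A1, and the 1966 called lower (blue) reach -2.21 for FOS. FOS was under 1 CPM in each combination library.

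Some of the best known targets of the vitamin D receptor were much higher with the combination than with vehicle. The largest increase of all genes was that of *CYP24A1*, which encodes the mitochondrial enzyme that breaks down 1,25(OH)2D3 (chromosome 20 from 52769988 to 52790516 of GRCh37). It had 0, 3 and 2 reads in the vehicle libraries and 1050, 1931 and 1749 in the combination libraries. The ratio of the summed reads, scaled for depth, was 954 (95% counting interval 408 to 2940), and the level reached 194, 307 and 285 CPM. Such intervals and floors take in counting error and no other error. *THBD*, which encodes thrombomodulin, the endothelial cofactor through which thrombin activates protein C, had 9.91, 13 and 7.65 CPM with vehicle and 76.9, 86.6 and 69.2 CPM with both agents (log2 fold change 2.92, SE 0.104, edgeR adjusted p = 2.6e-30). The 3 treated libraries lay far above the 3 vehicle libraries. *CYP3A4*, a drug- and steroid-metabolizing cytochrome P450 of the liver and gut, had no read with vehicle and 16, 17 and 17 with both agents, at least 16.8-fold more when a floor of 3 reads is set for the vehicle group as a whole. Its paralogs *CYP3A5* (2.21) and *CYP3A7* (3.23) rose too. Reads may be shared within this family, and 42.6% of the exon bases of *CYP3A7* lie in a readthrough gene. The receptor gene *VDR* rose from 104 ± 3.69 to 129 ± 6.75 CPM (mean ± SD of the 3 libraries of each group, as for all such values, log2 fold change 0.32, SE 0.0588, edgeR adjusted p = 1.58e-05), and so did *NFKBIA*, which encodes the inhibitor of NF-κB (0.73). The potassium channel gene *KCNK3* had 0 reads with vehicle and 36 with both agents, at least 12.1-fold more. Of 23 tested genes that act in vitamin D metabolism or are classic targets of the receptor, 9 rose and 3 fell. These are 39.1% and 13.0%, against 17.3% and 16.1% of all tested genes. Their median log2 change was 0.20 against 0.0016 over all tested genes. *CYP24A1*, *CYP3A4* and *KCNK3* had at most 3 reads in any vehicle library and passed the filter only through treated libraries. Their rise was therefore fixed in advance, and these counts are a description and not a test. The 3 that fell, named after their values were seen, were the cell cycle inhibitor *CDKN1A* (-0.21), the retinoid X receptor gene *RXRA* (-0.20) and the semaphorin *SEMA6D* (-0.80). The call of *RXRA* was lost without the block (edgeR adjusted p = 0.129), with DESeq2 and block (0.177), and without vehicle replicate 1 or 2 or any 1 combination library (0.0537 to 0.238 with edgeR). Compared with Wnt3A alone, 11 of the 23 were higher with the combination, 1 was lower and 11 were not called, with a median of 0.31. With 1,25(OH)2D3 alone, measured against the same vehicle libraries, 13 rose and 1 fell (24.2% of all tested genes were called with this agent). Against 1,25(OH)2D3 alone, *CYP24A1* differed by -0.015 and was not called, whereas *THBD* (-0.50), *CYP3A7* (-0.43) and *NFKBIA* (-0.24, all on the log2 scale for this comparison) were called lower.

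Genes that respond to Wnt/β-catenin signalling were the list with the highest median change. Of 25 tested targets and feedback genes, 18 rose and 3 fell with the combination, and the median log2 change was 0.77 (0.75, 0.82 and 0.79 in the pairs of experiments 1, 2 and 3). The list holds genes that the study itself named from these libraries, among them *AXIN2*, *APCDD1*, *TCF7*, *NKD1*, *NKD2*, *CPLX2*, *ODZ3* and *ILDR2*. *NKD1* also passed the filter only through treated libraries. The counts, the median and the rank of this list are therefore partly set in advance. *AXIN2* encodes a scaffold of the complex that degrades β-catenin. It had 1.91, 2.08 and 2.5 CPM with vehicle and 17.9, 22.1 and 20.5 CPM with both agents (log2 fold change 3.21, SE 0.197, edgeR adjusted p = 5.25e-20), although 25.3% of its exon bases also belong to an unnamed gene on the same strand. *APCDD1*, a membrane protein that binds Wnt and LRP and inhibits the pathway (chromosome 18 from 10454625 to 10488698), rose from 21.7 ± 6.59 to 194 ± 35.1 CPM (log2 fold change 3.17, SE 0.0864, edgeR adjusted p = 1.03e-32). The Dishevelled-binding inhibitors *NKD1* and *NKD2* rose as well. *NKD1* had 1 read over the vehicle libraries and 37 over the combination libraries, a ratio of 37.3 with a counting interval of 6.29 to 1510. *NKD2* had 13.6, 17.3 and 10.5 CPM with vehicle and 74.1, 66.4 and 60.9 CPM with both agents (log2 fold change 2.28, SE 0.104, edgeR adjusted p = 1.95e-25). The lowest of the treated libraries was well above the highest vehicle library for each of these 4 genes. The transcription factor gene *TCF7* had a log2 fold change of 0.96, the complexin gene *CPLX2*, whose product clamps synaptic vesicle fusion, of 4.25, the teneurin gene *ODZ3* of 2.30 and *ILDR2*, a membrane protein of the immunoglobulin superfamily, of 1.69. Outside this list, *DKK2*, which encodes a secreted ligand of LRP co-receptors, rose from 4.03 ± 1.55 to 23.8 ± 5.45 CPM (log2 fold change 2.57, SE 0.163, edgeR adjusted p = 1.76e-19). The 3 members that fell were the hyaluronan receptor gene *CD44* and the growth regulators *MYC* (-0.65) and *CCND1* (-0.36), both of which serum mitogens also induce. *CD44* was among the most abundant genes, at 6286, 6029 and 6757 CPM with vehicle and 3818, 3848 and 4046 CPM with both agents (log2 fold change -0.70, SE 0.0402, edgeR adjusted p = 2.93e-21). The secreted antagonist *DKK1* fell too (-0.86). With Wnt3A alone 13 members rose and 2 fell, against the same vehicle libraries (13.5% of all tested genes were called), and with 1,25(OH)2D3 alone 8 rose and 4 fell.

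Wnt ligand and receptor genes moved in both directions. Of 17 tested, 6 rose and 3 fell (35.3% and 17.6%, against 17.3% and 16.1% of all tested genes). *WNT5A*, which encodes a non-canonical Wnt of the mesenchyme, had 466, 434 and 508 CPM with vehicle and 689, 680.3 and 746 CPM with both agents (log2 fold change 0.59, SE 0.0458, edgeR adjusted p = 5.78e-16). *WNT16*, a Wnt of the stroma, had 115, 99.5 and 116 CPM with vehicle and 125, 117 and 130.4 CPM with both agents (log2 fold change 0.17, SE 0.0583, edgeR adjusted p = 0.0182). The groups do not overlap for either gene, but the gap for *WNT16* is narrow and its call was lost without the block (edgeR adjusted p = 0.142), with DESeq2, and when the vehicle or the combination library of experiment 2 was left out (0.0749 and 0.134 with edgeR) or experiment 2 or 3 as a whole (0.221 and 0.0746). The receptor genes *FZD1* (0.49) and *LRP6* (0.26) rose, and *FZD7* (-0.28) and *FZD8* (-0.57, with overlapping groups) fell. Without combination replicate 2, 3 genes of the list rose. In the list of secreted antagonists, which also holds the Dickkopf receptor genes *KREMEN1* and *KREMEN2*, only *DKK2* and *DKK1* were called of 6 tested genes.

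The 12 largest rises and 12 largest falls among called genes with at least 1 CPM on average and the same direction in every pair cover several functions. *OSR1*, a zinc finger factor of embryonic mesoderm and connective tissue, had 2.96, 2.24 and 1.66 CPM with vehicle and 29.5, 32.2 and 31.2 CPM with both agents (log2 fold change 3.76, SE 0.171, edgeR adjusted p = 1.88e-25). *COLEC12*, a scavenger receptor with a collagen-like and a lectin domain, had 19, 21.9 and 11.8 CPM with vehicle and 204, 218 and 163 CPM with both agents (log2 fold change 3.48, SE 0.0794, edgeR adjusted p = 2.03e-39). Every treated library was at least several times above every vehicle library for both. *GPC3*, a heparan sulfate proteoglycan that binds growth factors, had 2 reads with vehicle and 52 with both agents, a ratio of 26.2 (counting interval 6.9 to 222), and the adaptor gene *SLA* had 4 and 43, a ratio of 10.8 (3.94 to 41.6). *GPC3* and *SLA* passed the filter only through treated libraries, so their rise was fixed in advance. The largest fall was that of *FOS*, a subunit of the AP-1 transcription factor, at 3.83, 2.24 and 2.83 CPM with vehicle and 0.922, 0.318 and 0.651 CPM with both agents (log2 fold change -2.21, SE 0.403, edgeR adjusted p = 1.38e-05). *TACR1*, the receptor for substance P, had 49.7, 43.2 and 68.4 CPM with vehicle and 9.96, 12.1 and 15.1 CPM with both agents (log2 fold change -2.10, SE 0.105, edgeR adjusted p = 9.21e-24). *CLDN1*, a tight junction protein, had 77.6, 55 and 71 CPM with vehicle and 17.9, 14.9 and 16.4 CPM with both agents (log2 fold change -2.04, SE 0.0927, edgeR adjusted p = 1.7e-25). The groups were apart for all 3 genes, and for *TACR1* and *CLDN1* the highest treated library was far below the lowest vehicle library. Among the other falls were the potassium channel gene *KCNF1* (-1.77), the cationic amino acid transporter *SLC7A2* (-1.75), the chemerin receptor *CMKLR1* (-1.58), the interferon-inducible chemokine *CXCL10* (-1.56), the secreted factor *FIBIN* (-1.54), the lipid droplet protein *PLIN4* (-1.55), the interferon-induced GTPase *GBP5* (-1.53), the glycosyltransferase *B4GALNT2* (-1.52) and *EVI2A* (-2.03). The last 4 had under 5 CPM in every library. *FOS* too was under 5 CPM in these 6 libraries. In the combination libraries it was under 1 CPM, where a library holds only a few reads, so the size of its fall is uncertain. *GBP5* lost its call without vehicle replicate 3 (edgeR adjusted p = 0.0655), and *PLIN4* without combination replicate 3 (0.0681), without experiment 2 (0.088) and on the undivided values (0.0608). *EVI2A* and *B4GALNT2* share 17% and 15.1% of their exon bases with another gene on the same strand.

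**Figure D2:**
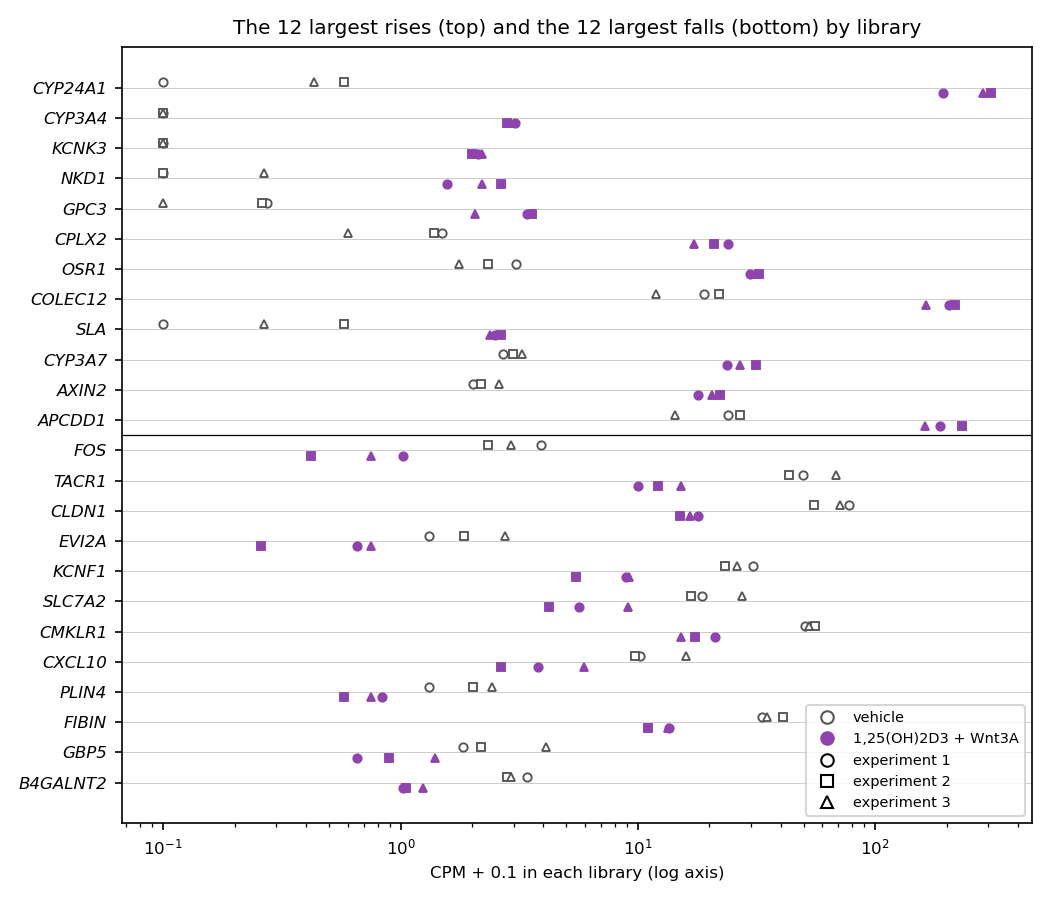
Level of the 12 largest rises (above the line) and the 12 largest falls (below it) in each library, as CPM + 0.1 on a log axis, with open symbols for vehicle, filled symbols for the combination and 1 shape per experiment. The filled and open symbols do not overlap for any of the 24 genes, and CYP24A1 moves from a mean of 0.271 to 262 CPM.

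Genes of the cell cycle were higher with the combination. Of 52 tested genes of DNA replication and S phase, 43 rose and none fell by edgeR, at an unadjusted p under 0.05 or by DESeq2, with a median log2 change of 0.51 (0.47, 0.46 and 0.50 in the 3 pairs), and 41 had all 3 combination libraries above all 3 vehicle libraries. Of 58 genes of mitosis and G2, 45 rose and 1 fell, with a median of 0.42. *MKI67*, the nuclear protein used as a proliferation marker, had 144, 167 and 174 CPM with vehicle and 292, 299 and 289 CPM with both agents (log2 fold change 0.86, SE 0.0575, edgeR adjusted p = 1.86e-18). *RRM2*, the small subunit of ribonucleotide reductase that makes deoxynucleotides, had 252, 202 and 238 CPM with vehicle and 359.7, 361 and 391 CPM with both agents (log2 fold change 0.69, SE 0.0517, edgeR adjusted p = 1.79e-16). The libraries of each group stood apart for both genes. The replication licensing genes *CDC6* (0.72), *MCM2* (0.70), *MCM3* (0.62) and *MCM7* (0.58), the topoisomerase *TOP2A* (0.58), the centromere protein *CENPF* (0.81), the spindle checkpoint kinase *BUB1B* (0.77) and the kinesin *KIF23* (0.63) rose too. For *MCM2*, 23.6% of the exon bases lie in an unnamed gene on the other strand. Of 34 tested cyclins, cyclin-dependent kinase inhibitors and p53 targets, by contrast, 5 rose and 7 fell, with a median of 0.00094 (3 rose without combination replicate 2). These shares, 14.7% and 20.6%, are near the 17.3% and 16.1% of all tested genes. *CDK6*, a kinase of early G1, fell from 176 ± 19 to 107 ± 5.77 CPM, *CCND2* had a log2 fold change of -0.30, and the growth arrest gene *GADD45B* one of 0.60. For the S phase genes the medians against the same vehicle libraries were 0.088 with 1,25(OH)2D3 alone (9 rose and 1 fell) and 0.39 with Wnt3A alone (39 rose and none fell by edgeR, also at an unadjusted p under 0.05). For the mitotic genes they were -0.035 (6 rose and 3 fell) and 0.42 (50 rose and none fell by edgeR, with 1 lower at an unadjusted p under 0.05). The study reported lower proliferation of these cells with each agent and with both together. Its assay measured dye conversion by living cells after days of treatment, whereas the RNA was taken at 24 h. These RNA levels therefore do not show faster growth, and how they relate to that assay was not tested.

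Promoters of these replication genes often hold an E2F motif, the site of the factors that switch on S phase genes. The window from 250 bases before to 50 bases after each RefSeq start (GRCh38.p14) was searched on both strands for TTTCCCGC, TTTGGCGC, TTTCGCGC and TTTGCCGC. Such letters occurred in 21 of the 44 S phase promoters that could be matched by symbol (47.7%), against 3.33% of all 27305 promoters in the table and 5.51% of the 9845 that belong to tested genes. They were in 7.86% of 1717 promoters of genes higher with the combination, 3.17% of 1607 lower and 5.46% of 6521 not called. Of the 21 S phase genes with the motif 18 rose (median log2 change 0.53), and of the 23 without it 18 rose (0.35). The following stretches show the motif with its flanks for 6 replication genes, 5′ to 3′ on the strand of the gene, with the motif in capitals. In each stretch 1 match is in capitals, and where its letters are not those listed it lies on the other strand. They were chosen from the matches after the values were seen, to cover the E2F factors themselves, the replication helicase, the sliding clamp and its loader.
E2F1: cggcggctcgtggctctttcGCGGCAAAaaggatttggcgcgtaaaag
E2F2: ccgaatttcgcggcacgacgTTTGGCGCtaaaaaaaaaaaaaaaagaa
MCM3: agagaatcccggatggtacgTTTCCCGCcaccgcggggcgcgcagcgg
MCM7: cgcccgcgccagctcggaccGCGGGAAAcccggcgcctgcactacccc
PCNA: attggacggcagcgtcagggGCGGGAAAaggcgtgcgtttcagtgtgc
RFC3: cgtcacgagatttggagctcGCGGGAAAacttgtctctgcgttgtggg
They lie at chr20:33686391-33686438 (minus strand), chr1:23531248-23531295 (minus strand), chr6:52284889-52284936 (minus strand), chr7:100101557-100101604 (minus strand), chr20:5126654-5126701 (minus strand) and chr13:33818074-33818121 (plus strand). *E2F1*, an activating E2F factor, had 33.7, 24.3 and 25.6 CPM with vehicle and 53.7, 39.9 and 36.6 CPM with both agents. *E2F2*, which is related to it, had 6.96, 5.6 and 4.66 CPM with vehicle and 10.9, 11.1 and 13.7 CPM with both agents. The stretch of *E2F1* holds a further match in lower case. In both genes every treated library was above every vehicle library, with log2 fold changes of 0.63 and 1.06. The changes were 0.40 for *PCNA*, the sliding clamp of DNA polymerases, and 0.57 for *RFC3*, a subunit of the loader that opens it. A match of letters describes the sequence and does not show binding. The TCF/LEF letters CTTTGAT were in 1.34% of the promoters of higher genes, 0.685% of lower genes, 1.46% of genes not called, 1.31% of tested genes and 2.64% of all promoters in the table, and in none of the 16 matched promoters of the Wnt target list.

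Sterol synthesis genes rose together. Of 30 tested genes of cholesterol biosynthesis and uptake, 24 were higher with the combination and none was lower by edgeR, at an unadjusted p under 0.05 or by DESeq2. The list also holds regulators and the cholesterol exporter gene *ABCA1*, which is 1 of the 24. The median log2 change was 0.42 (0.42, 0.40 and 0.38 in the 3 pairs). *INSIG1*, the endoplasmic reticulum protein that retains the sterol sensor SCAP, had 87.5, 85.1 and 95.3 CPM with vehicle and 176, 172 and 159 CPM with both agents (log2 fold change 0.92, SE 0.0602, edgeR adjusted p = 6.85e-19). *STARD4*, a cholesterol transfer protein, had 29.2, 31.7 and 34.6 CPM with vehicle and 58.5, 60.4 and 57.5 CPM with both agents (log2 fold change 0.88, SE 0.0831, edgeR adjusted p = 5.08e-13). Both genes were higher in every treated library. The enzymes *ACAT2* (0.75), *SC4MOL* (0.74) and *IDI1* (0.59) and the transcription factor gene *SREBF2* (SREBP2), which drives this pathway, also rose. *SREBF2*, picked after its values were seen, had 92, 96.2 and 97.8 CPM with vehicle and 134, 135 and 124 CPM with both agents (log2 fold change 0.45, SE 0.0607, edgeR adjusted p = 1.62e-08). The sterol response element TCACNCCAC was found in the promoter window of 1 of 24 matched genes of the list, SREBF2 itself, against 1.15% of all promoters, 1.11% of those of tested genes, 0.815% of higher, 1.31% of lower and 1.13% of genes not called. It is shown because that gene encodes the factor that binds such elements, with the motif in capitals, at chr22:41832952-41833000 (plus strand) of GRCh38.p14.
SREBF2: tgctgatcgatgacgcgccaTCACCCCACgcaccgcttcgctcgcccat
With 1,25(OH)2D3 alone 11 of the 30 genes rose and 1 fell (median 0.14), and with Wnt3A alone 14 rose and 2 fell (0.20). The combination was higher than 1,25(OH)2D3 alone for 20 genes and higher than Wnt3A alone for 17. Genes of fatty acid synthesis and lipid storage did not share a direction, with 9 of 28 higher and 9 lower. The stearoyl-CoA desaturase gene *SCD* had 146, 159 and 153 CPM with vehicle and 262, 287 and 269 CPM with both agents (log2 fold change 0.84, SE 0.0527, edgeR adjusted p = 1.31e-19). The acetyl-CoA synthetase *ACSS2* (0.71) and the desaturase *FADS1* (0.50) rose, whereas the adipogenic nuclear receptor *PPARG* (-0.73) and the arachidonate-activating enzyme *ACSL4* (-0.37) fell.

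Redox and stress response genes and ribosomal protein genes were more often lower than higher. Of 41 tested targets of the antioxidant factor NRF2 and pentose phosphate pathway enzymes, 24 fell and 8 rose, with a median log2 change of -0.22. *SQSTM1*, the autophagy receptor p62, fell from 1417 ± 22.5 to 913 ± 24.6 CPM (log2 fold change -0.64, SE 0.0441, edgeR adjusted p = 7.51e-18), *TKT*, transketolase, from 398 ± 19.4 to 265 ± 6.09 CPM, and *NQO1*, a quinone reductase, from 692 ± 21.2 to 481 ± 11.9 CPM. The members that rose included the dehydrogenase *PGD*, from 312 ± 8.2 to 560.5 ± 48.1 CPM (log2 fold change 0.84, SE 0.0502, edgeR adjusted p = 1.72e-20), and the aldo-keto reductase *AKR1C1* (0.97), which has close paralogs. With Wnt3A alone 29 of the 41 fell and none rose by edgeR, also at an unadjusted p under 0.05, and with 1,25(OH)2D3 alone 14 rose and 8 fell. Of 45 genes of the unfolded protein and integrated stress responses, 23 fell and 5 rose (median -0.18). *HSPA5*, the main chaperone of the endoplasmic reticulum (BiP), had 864, 768 and 939 CPM with vehicle and 469, 448 and 555 CPM with both agents (log2 fold change -0.81, SE 0.0457, edgeR adjusted p = 2.01e-21). It was lower in each treated library than in any vehicle library. *CHAC1*, which degrades glutathione, had a log2 fold change of -0.85, the phosphatase subunit *PPP1R15A* of -0.56 and the collagen-regulating factor *CREB3L1* of -0.41, while *CEBPB* rose (0.70). Of 42 genes of glycolysis and the hypoxia response, 16 fell and 8 rose. Enolase 1 (*ENO1*) had 1173, 1090 and 1019 CPM with vehicle and 831, 782 and 744 CPM with both agents, and the lactate transporter gene *SLC16A3* (-0.49) and the regulatory enzyme gene *PFKFB4* (-0.87) also fell. *DDIT4*, an inhibitor of mTORC1, rose (0.87). Of 52 cytosolic ribosomal protein genes 23 fell and none rose by edgeR, at an unadjusted p under 0.05 or by DESeq2, but the changes were small (median -0.14). The medians by pair were -0.25, -0.11 and -0.10, and 10 fell without the block. Leaving out vehicle replicate 1 gave 10 and leaving out combination replicate 1 gave 15. *RPL4* (-0.29) and *RPS20* (-0.31) were among them, and reads of these genes may be shared with processed pseudogenes. Of 52 subunits of oxidative phosphorylation, 7 fell (13.5% of them, against 16.1% of all tested genes) and 1 rose, and 13 fell without vehicle replicate 3. The ATP synthase gene *ATP5B* fell from 718 ± 28.3 to 613 ± 8.05 CPM.

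**Figure D3:**
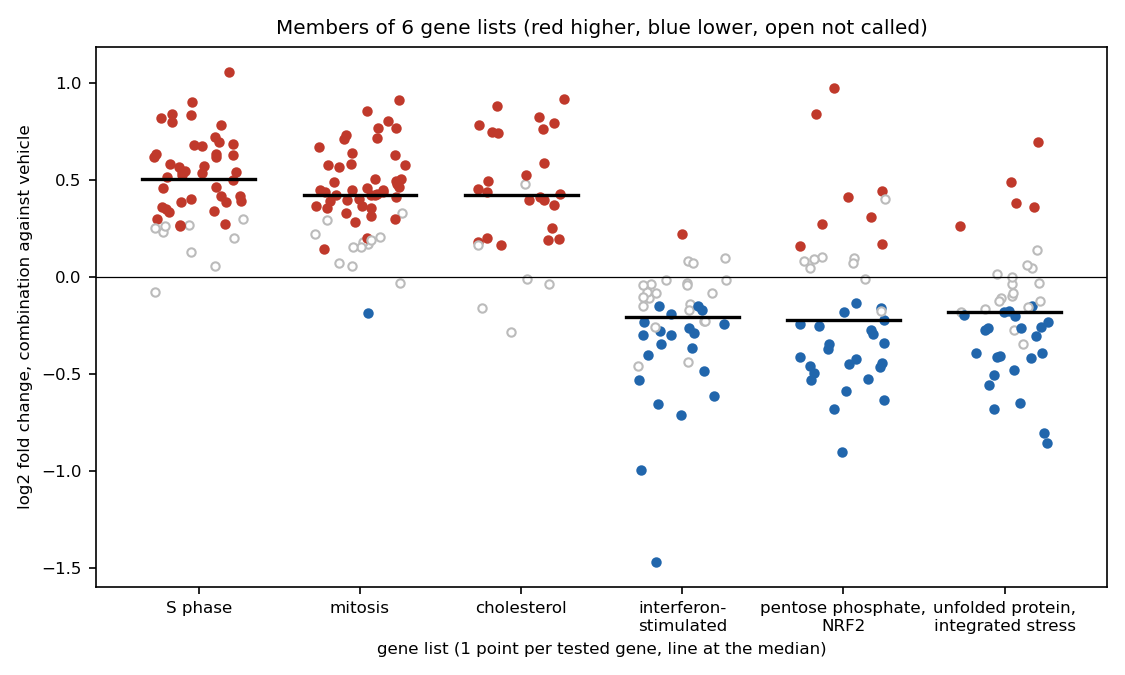
Log2 fold change between the combination and vehicle for every tested gene of 6 lists, 1 point per gene, with red for higher, blue for lower, open grey for not called and a black line at the median. The medians lie at 0.51 for S phase, 0.42 for mitosis and 0.42 for cholesterol, and at -0.21, -0.22 and -0.18 for the interferon-stimulated, NRF2 and unfolded protein lists.

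Genes of the matrix both rose and fell. Of 36 tested matrix glycoproteins and proteoglycans 14 rose and 7 fell (10 and 3 without the block, and 3 or 4 falls without vehicle replicate 2 or any 1 combination library). *GPC3*, which is among the 14, passed the filter only through treated libraries. *FN1*, fibronectin, had 4794, 5628 and 6036 CPM with vehicle and 8674, 9385 and 9431 CPM with both agents (log2 fold change 0.74, SE 0.0437, edgeR adjusted p = 8.22e-21), and it was higher in all treated libraries. *LAMA2*, a laminin chain of basement membranes, rose from 493 ± 65.7 to 938 ± 51.8 CPM, and *TNC* (tenascin C, 0.65), *NID2* (0.71) and the glypican *GPC4* (0.75) rose too. Of 24 collagen chains 10 rose and 6 fell with the combination (5 and 2 without the block), and the median was 0.0033. *COL6A3* had 5689, 5891 and 7478 CPM with vehicle and 8683, 8904 and 10201 CPM with both agents (log2 fold change 0.55, SE 0.041, edgeR adjusted p = 1.16e-16). *COL1A1*, the main chain of type I collagen, had 6327, 5716 and 5363 CPM with vehicle and 7704, 7469 and 7865 CPM with both agents (log2 fold change 0.41, SE 0.0617, edgeR adjusted p = 2.95e-05). The treated libraries were above the vehicle libraries for both, whereas they overlapped for *COL12A1* (0.27), whose call was lost without the block (edgeR adjusted p = 0.0651), and for *COL5A2* (-0.25). *COL16A1* (0.43) and *COL14A1* (0.32) also rose. The enzymes that fold and crosslink collagen were more often lower: 9 of 21 fell and 3 rose, with a median of -0.10 (8 fell without the block). *LOXL1*, a lysyl oxidase, fell from 117 ± 18.8 to 76.4 ± 10.0 CPM, *LEPREL1*, a prolyl 3-hydroxylase, from 1015 ± 71.4 to 778 ± 32.3 CPM and *SERPINH1*, the collagen chaperone HSP47, from 388 ± 22.6 to 327 ± 11.1 CPM. The abundant matricellular genes *THBS1* (-0.24) and *SPARC* (-0.33) fell. Of 35 proteases and inhibitors 11 rose and 9 fell (6 and 6 without the block). *TIMP3*, a matrix-bound inhibitor of metalloproteinases, had 957, 816 and 835 CPM with vehicle and 3614, 3424 and 3233 CPM with both agents (log2 fold change 1.98, SE 0.044, edgeR adjusted p = 7.27e-40). The tissue plasminogen activator gene *PLAT* had 3210, 2789 and 3360 CPM with vehicle and 1491, 1375 and 1608 CPM with both agents (log2 fold change -1.06, SE 0.0416, edgeR adjusted p = 2.04e-28). The groups were far apart for both genes. The urokinase gene *PLAU* (-0.60) and the aggrecanase family member *ADAMTS1* (-0.69) fell, whereas the collagenase *MMP1* (1.14) and the metalloproteinase *ADAM19* (0.99), picked after its values were seen, rose. *NID2* and *PLAU* share 30.7% and 31% of their exon bases with genes on the other strand.

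Genes of contraction showed no common direction, while receptors for contractile agonists were more often lower. Of 35 contractile and cytoskeletal genes 9 rose and 10 fell (5 and 6 without the block, and 4 or 5 rises without combination replicate 2 or 3). *ACTA2*, smooth muscle α-actin and the usual marker of myofibroblasts, had 195, 108 and 129 CPM with vehicle and 189.8, 128 and 158 CPM with both agents (log2 fold change 0.16, SE 0.0604, edgeR adjusted p = 0.0371). These levels overlap, the direction was mixed among the pairs, and the call was lost without the block (edgeR adjusted p = 0.772), with DESeq2 (0.158 with the block) and without vehicle replicates 2 or 3 or combination replicates 2 or 3 (0.156 to 0.284 with edgeR). In addition 29.1% of its exon bases lie opposite an antisense gene. *S100A4*, a calcium-binding protein of activated fibroblasts, had 960.1, 787 and 791 CPM with vehicle and 753, 688 and 674 CPM with both agents (log2 fold change -0.26, SE 0.0456, edgeR adjusted p = 6.99e-06). The leiomodin *LMOD1* (0.68), caldesmon (*CALD1*, 0.26) and the non-muscle myosin chain *MYH10* (0.47) rose, and zyxin (*ZYX*, -0.53), smoothelin (*SMTN*, -0.34) and vimentin (*VIM*, -0.25) fell. Of 31 tested receptors for contractile agonists and their RGS regulators, 16 fell and 6 rose, with a median of -0.34 (10 and 5 without the block). The thrombin receptor genes *F2R*, from 762 ± 12 to 515 ± 22.5 CPM, and *F2RL2* (-1.49) fell, as did the bradykinin receptor *BDKRB1* (-0.78). The adenosine receptor *ADORA1* (1.31) rose. *RGS2*, which speeds the inactivation of Gq, had 74.4, 65.1 and 61.4 CPM with vehicle and 134, 151 and 138 CPM with both agents (log2 fold change 1.08, SE 0.0666, edgeR adjusted p = 6.66e-20), with no overlap between the groups. The prostaglandin receptor gene *PTGER3*, picked here after its values were seen, rose from 4.63 ± 1.4 to 12.8 ± 1.1 CPM. Of 19 genes of coagulation and plasminogen activation 10 fell and 3 rose, with *THBD* among the rises and the tissue factor pathway inhibitor gene *TFPI* among the falls (322 ± 7.82 to 175 ± 11.5 CPM).

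Growth factor genes were lower more often than higher. Of 33 tested genes of the EGF, FGF, HGF, PDGF and VEGF families, 15 fell and 5 rose (median -0.23). *FGF7*, the keratinocyte growth factor that fibroblasts send to epithelium, had 176, 143 and 197 CPM with vehicle and 62.2, 55 and 66.4 CPM with both agents (log2 fold change -1.49, SE 0.0655, edgeR adjusted p = 4.25e-26). *HGF*, the ligand of MET, had 306, 339 and 314 CPM with vehicle and 188, 177 and 159 CPM with both agents (log2 fold change -0.88, SE 0.0537, edgeR adjusted p = 4.74e-20). Both genes were lower in every treated library, and *VEGFC*, a lymphatic growth factor, fell from 158 ± 24.2 to 74.1 ± 7.42 CPM. The angiogenic factor *VEGFA* moved the other way, with 84.9, 96.5 and 80.0 CPM with vehicle and 209.5, 243 and 226 CPM with both agents (log2 fold change 1.38, SE 0.0576, edgeR adjusted p = 4.91e-27). The angiopoietin-like gene *ANGPTL2* fell (-0.80). Of 34 genes of MAPK feedback and the immediate early response, 19 fell and 3 rose (median -0.28). *SPRY2*, an inhibitor of receptor tyrosine kinase signalling, had 49.9, 35.8 and 40.6 CPM with vehicle and 18.1, 15.7 and 16.9 CPM with both agents (log2 fold change -1.31, SE 0.0993, edgeR adjusted p = 2.52e-16). Its relative *SPRY4* (-0.73) and the ERK phosphatase *DUSP6* (-0.55) fell with it, and 28.6% of the exon bases of *DUSP6* lie in an unnamed gene on the other strand. The AP-1 subunit *FOSL2* rose from 47.5 ± 7.35 to 107 ± 7.89 CPM. Of 18 genes of the IGF axis 5 rose and 3 fell (2 and 2 without the block, and 5 falls without vehicle replicate 1). The shares were 27.8% and 16.7%, against 17.3% and 16.1% of all tested genes. The pappalysin *PAPPA*, which cleaves IGF-binding proteins, rose from 44.9 ± 4.4 to 104 ± 14.3 CPM, the docking protein gene *IRS1* had a log2 fold change of 0.54 and *IRS2* of -0.72.

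Among genes of the TGF-β family, ligands and antagonists rose and fell side by side. *BMP4* had 122, 154 and 119.6 CPM with vehicle and 223, 276 and 257 CPM with both agents (log2 fold change 0.93, SE 0.0569, edgeR adjusted p = 3.99e-20). The BMP-related ligand gene *GDF6* had 127, 118 and 126 CPM with vehicle and 248, 247 and 239 CPM with both agents (log2 fold change 0.98, SE 0.0567, edgeR adjusted p = 4e-21). Every treated library exceeded every vehicle library for both ligands. The antagonist gene *GREM1*, a product of the fibroblasts around crypts, rose from 687 ± 79 to 999 ± 112 CPM. *BMPER*, an extracellular modulator of BMPs, fell from 30.4 ± 1.74 to 12.6 ± 1.05 CPM. In all, 10 of 27 tested BMP genes rose and 10 fell. Of 26 genes of TGF-β signalling 9 fell and 4 rose, with a median of -0.084 (2 rose without vehicle or combination replicate 2). The shares were 34.6% lower and 15.4% higher, against 16.1% and 17.3% of all tested genes. *TGFB1* fell from 167 ± 15.3 to 114 ± 6.46 CPM, whereas *TGFB2* rose from 43.7 ± 2.09 to 133 ± 9.08 CPM (log2 fold change 1.61, SE 0.0731, edgeR adjusted p = 1.83e-25). The response gene *CTGF* (-0.56) fell, and so did the ubiquitin ligase gene *SMURF2* (-0.82), which targets receptors and SMADs. *BMP4*, *TGFB2* and *CTGF* share 16.3%, 22.7% and 11.9% of their exon bases with another annotated gene. In the Notch and hedgehog list 5 of 21 genes rose and 5 fell (3 falls without vehicle replicate 3). Each share was 23.8%, not far from the 17.3% higher and 16.1% lower of all tested genes. The Notch ligands *DLL4* (92.5 ± 7.86 to 44.2 ± 7.7 CPM) and *JAG1* (51.6 ± 2.16 to 27.7 ± 1.27 CPM) fell, the hedgehog factors *GLI3* (1.03) and *GLI2* (0.42) rose, and *FOXL1*, a marker of telocytes below the epithelium in mice, fell (-0.33).

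Inflammatory and interferon genes were lower more often than higher. Of 46 tested chemokines, cytokines and prostaglandin genes 13 fell and 8 rose (median -0.26). The share of rises, 17.4%, was near the 17.3% of all tested genes, and that of falls was 28.3% against 16.1%. *CCL2*, a monocyte attractant, had 199.6, 152 and 145 CPM with vehicle and 72.7, 61.8 and 67.9 CPM with both agents (log2 fold change -1.29, SE 0.0653, edgeR adjusted p = 1.7e-23). *IL6ST*, the gp130 subunit shared by interleukin 6 receptors, had 2249, 2567 and 3081 CPM with vehicle and 1553, 1582 and 1660 CPM with both agents (log2 fold change -0.71, SE 0.0487, edgeR adjusted p = 5.3e-17), and the macrophage growth factor gene *CSF1* fell from 412 ± 37 to 263 ± 32.7 CPM. *PTGS2*, the inducible cyclooxygenase, was picked after its values were seen and fell from 18.5 ± 1.04 to 6.47 ± 1.49 CPM. *CXCL14*, a chemokine of barrier tissues, had 15.5, 15 and 23 CPM with vehicle and 97.6, 144 and 176 CPM with both agents (log2 fold change 2.97, SE 0.0856, edgeR adjusted p = 1.72e-34), and its treated libraries were above all vehicle libraries. It and *PTGER3* were the largest of the 8 rises in this list. Of 44 interferon-stimulated genes 21 fell and 1 rose, with a median log2 change of -0.21. Their medians by pair were -0.19, -0.21 and -0.22, but only 8 fell without the block. *USP18*, an isopeptidase that limits interferon signalling, fell from 26.5 ± 3.06 to 16.2 ± 1.06 CPM and *OASL* from 32.9 ± 6.59 to 21.4 ± 4.81 CPM. *IFIT2* (-0.65) and *MX2* (-0.48) lost their calls without the block (edgeR adjusted p = 0.0677 and 0.175). Of 26 complement and MHC class I genes 8 fell and 4 rose (5 and 1 without the block, and 2 rises without vehicle replicate 2), with falls of the peptide loading genes *TAP1* (-0.29) and *TAPBP* (-0.30) and the complement inhibitor *CD59* (-0.35). Here 30.8% were lower and 15.4% higher, against 16.1% and 17.3% of all tested genes.

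Transcription factors of the mesenchyme, adhesion genes and guidance cues moved both ways. Of 38 mesenchymal factors 14 rose and 9 fell. *OSR2*, the relative of *OSR1*, had 5.91, 5.44 and 4.49 CPM with vehicle and 28.6, 26.5 and 25.9 CPM with both agents (log2 fold change 2.35, SE 0.148, edgeR adjusted p = 1.3e-19), with no overlap between the groups. *TCF4*, a basic helix-loop-helix factor, rose from 32.6 ± 5.49 to 108 ± 7.38 CPM. *SOX4* (1.25) and *TCF21* (0.75) rose as well. Of 33 genes of junctions, cadherins and integrins 9 rose and 9 fell: the plakophilin *PKP2* (2.65) and *CDH6* (1.21) rose, and *CLDN1* and the collagen receptor subunits *ITGA2* (486 ± 134 to 243 ± 29.4 CPM) and *ITGA3* (-0.46) fell. Of 34 axon guidance genes 12 rose and 6 fell, with rises of the semaphorins *SEMA3A* (0.78), *SEMA3B* (0.83) and *SEMA3C* (0.72) and a fall of netrin 4 (*NTN4*, -0.97), although 3 fell without vehicle replicate 2. Of 20 tested retinoid enzymes and drug-metabolizing P450 genes, 8 rose and 3 fell. *CYP26B1*, which clears retinoic acid, had 51.3, 58.2 and 45.9 CPM with vehicle and 264, 282 and 252 CPM with both agents (log2 fold change 2.36, SE 0.0648, edgeR adjusted p = 1.78e-35), and *CYP1A1*, a target of the aryl hydrocarbon receptor, rose from 3.12 ± 1.73 to 11.6 ± 5.62 CPM. *AHRR*, the repressor of that receptor, had a log2 fold change of 0.46, but 58.7% of its exon bases lie in a readthrough gene. *ANXA1*, which encodes annexin A1, had 416, 378 and 358 CPM with vehicle and 284, 272 and 251 CPM with both agents (log2 fold change -0.51, SE 0.0497, edgeR adjusted p = 1.3e-12).

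Some other genes named here also share at least 10% of their exon bases with another annotated gene, and since the counting is not stated to use strand their levels are less certain. These are *DKK1*, *LMOD1*, *VIM*, *IFIT2*, *CCND1*, *CCND2*, *IDI1*, *ACAT2*, *SQSTM1*, *NQO1*, *CEBPB*, *PAPPA*, *TCF21*, *ADORA1*, *BDKRB1*, *TAPBP* and *TAP1*, with shares of 10.2% to 23.5%.

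**Figure D4:**
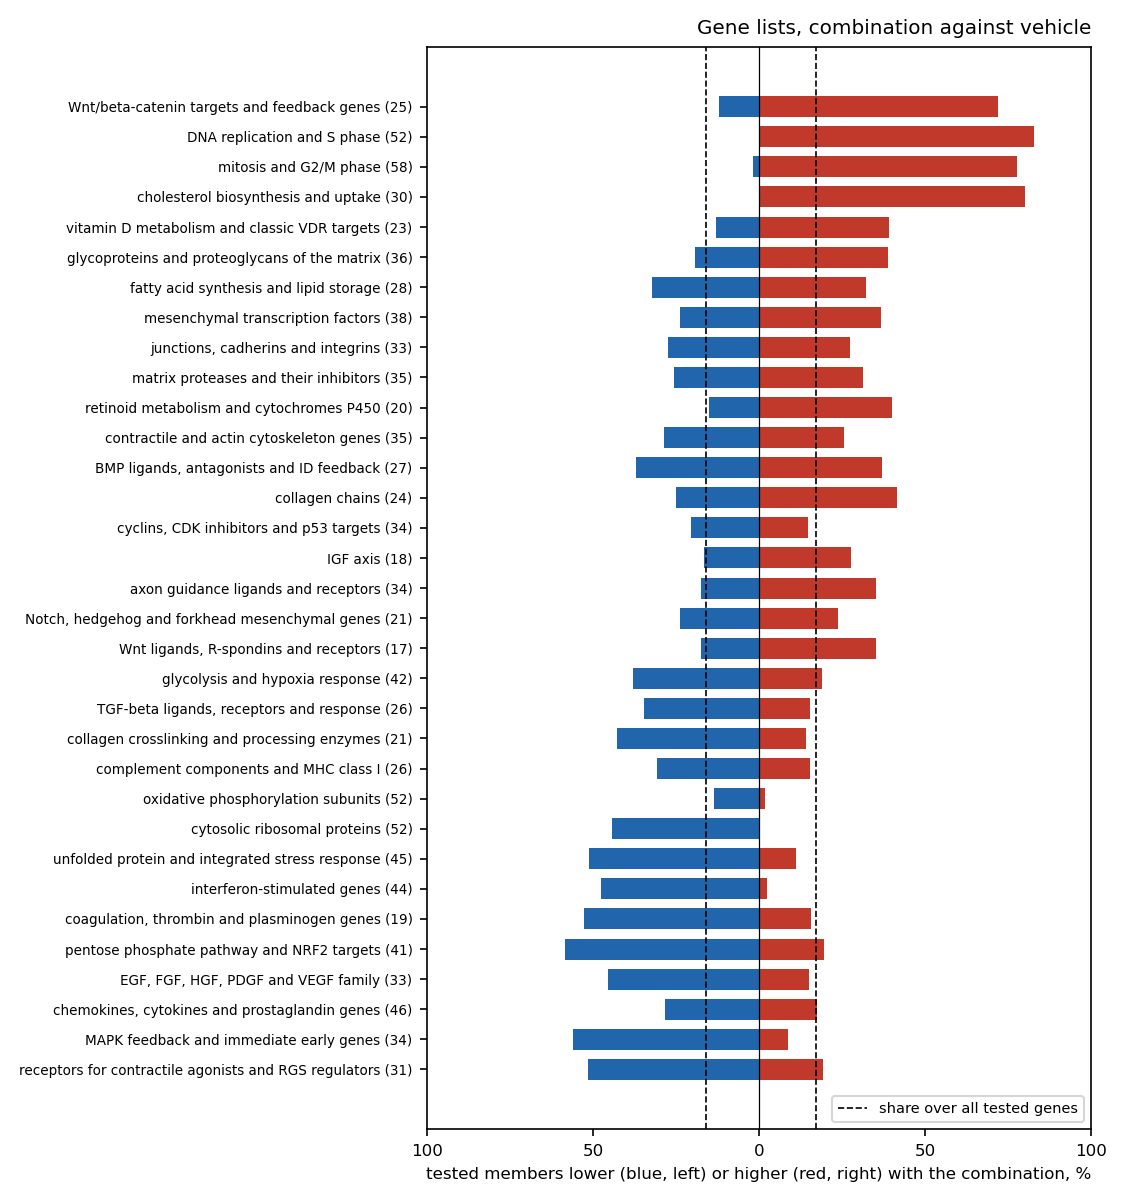
Share of the tested members of each gene list (number tested in brackets) that were called higher (red, right) or lower (blue, left) with the combination, ordered by the median change, with dashed lines at the shares over all tested genes (17.3% higher and 16.1% lower). The S phase, cholesterol, mitosis and Wnt target lists reach the largest shares of higher genes, with 43 of 52, 24 of 30, 45 of 58 and 18 of 25. The Wnt target list holds genes that the study named from these libraries.

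To show what distinguishes the combination from each agent, it was also tested directly against them. It differed from 1,25(OH)2D3 alone for 1812 genes (14.8% of those tested) and from Wnt3A alone for 2685 (22% of them). Of the 4082 genes changed against vehicle, 566 differed from both single agents, 740 from 1,25(OH)2D3 alone only, 1424 from Wnt3A alone only and 1352 from neither. Of the 4082, 1263 were called with neither agent alone against vehicle, and 89 of those differed from both agents in the same direction. The combination was above all 3 other groups for 241 genes (1.97% of those tested) and below all 3 for 140 (1.15%). A gene not called with an agent alone may still have changed with it. The study proposes this for most genes that it found changed only by the combination. Single changes in the same direction also place the combination beyond both agents when they simply add, so these sets are not shown to be particular to it.

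The genes furthest beyond both single agents by the largest of their 3 p-values included the Wnt inhibitor gene *APCDD1*, the scavenger receptor gene *COLEC12* and the chemokine gene *CXCL14*. *COLEC12* had 55.5, 53.9 and 41.6 CPM with 1,25(OH)2D3 and 67.8, 67.5 and 51.2 CPM with Wnt3A, all below the 204, 218 and 163 CPM with both. *CXCL14* had 34.3, 46.5 and 63.5 CPM with 1,25(OH)2D3 and 40.4, 50.9 and 60.0 CPM with Wnt3A, so that the lowest combination library was above the highest library of either agent. *APCDD1* had 35.9, 38.8 and 20.5 CPM with 1,25(OH)2D3, 113, 124 and 67.5 CPM with Wnt3A and 187, 231 and 162 CPM with both. *BCAT1*, which starts the breakdown of branched-chain amino acids, rose from 115 ± 13 to 415 ± 33.1 CPM, and *KIAA1199*, a hyaluronan-degrading protein also called CEMIP, from 988 ± 78.1 to 2713 ± 50.5 CPM. *AGPAT9*, an enzyme of glycerolipid synthesis (2.04), the pseudokinase *SGK223* (1.83) and the BMP antagonist *NBL1* (1.42, 16% of exon bases in a readthrough gene) followed. The log2 changes with 1,25(OH)2D3 and with Wnt3A, measured against the same vehicle libraries, were 0.54 and 0.99 for *BCAT1*, 0.83 and 0.76 for *KIAA1199*, 1.06 and 0.67 for *AGPAT9*, 0.92 and 1.19 for *SGK223*, and 0.75 and 0.36 for *NBL1*. Below all other groups were *TACR1*, *CLDN1*, *SMURF2*, *PLAT*, *HGF*, the cytokine gene *LIF*, the tetraspanin-like *TM4SF1* and *ODC1*, the first enzyme of polyamine synthesis. *ODC1* fell from 529 ± 91.3 to 234 ± 21.6 CPM (log2 fold change -1.17, SE 0.0529, edgeR adjusted p = 1.52e-25), with 342, 248 and 319 CPM with 1,25(OH)2D3 and 369, 314 and 367 CPM with Wnt3A. *LIF* fell from 217 ± 12.2 to 114 ± 12 CPM and *TM4SF1* from 438 ± 38.7 to 209 ± 14.2 CPM. For *CLDN1* the levels were 36.9, 29.2 and 41.3 CPM with 1,25(OH)2D3 and 34.2, 28.1 and 32.8 CPM with Wnt3A, between those of vehicle and of the combination.

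Some genes moved in opposite directions with the single agents, each measured against the same vehicle libraries. There were 207 genes higher with 1,25(OH)2D3 and lower with Wnt3A, of which 64 were higher, 44 lower and 99 not called with the combination. Of 119 genes lower with 1,25(OH)2D3 and higher with Wnt3A, the combination was higher for 39, lower for 21 and not called for 59. *RDH10*, a retinol dehydrogenase, had 813, 843 and 978 CPM with 1,25(OH)2D3, 217, 190.0 and 217 CPM with Wnt3A and 595, 624 and 729.8 CPM with both, against 311, 310.1 and 368 CPM with vehicle (log2 fold change 0.98, SE 0.0493, edgeR adjusted p = 1.3e-23). *SLCO2B1*, an organic anion transporter, rose from 119 ± 0.664 to 177 ± 3.42 CPM, and its changes were 1.19 and -0.78 with the single agents. *IGFBP3*, an IGF-binding protein that is also a vitamin D target, had 164, 138 and 94.5 CPM with vehicle and 211, 212 and 179 CPM with both agents (log2 fold change 0.62, SE 0.0676, edgeR adjusted p = 6.73e-10), and its call was lost without the block (edgeR adjusted p = 0.11). The IGF-binding protein gene *IGFBP5* had log2 changes of 0.75 with 1,25(OH)2D3, -0.70 with Wnt3A and -0.12 with both, and *NFE2L2*, which encodes NRF2, had 0.77, -0.63 and 0.081. Neither was called with the combination, and their levels overlapped those with vehicle. *IGFBP5* was called lower in 4 alternatives, with edgeR adjusted p of 0.0115 without experiment 1, 0.0218 without the filter, 0.0372 in the fit of these 6 libraries with the block and 0.0481 with the size factors of DESeq2. *NFE2L2* was called higher without experiment 1 (0.0081) and without combination replicate 1 (edgeR adjusted p = 0.0371). For *NFE2L2*, 23.4% of the exon bases lie in a gene on the other strand. *LOC728392*, to which the files give no fuller name, rose from 262 ± 56.5 to 388 ± 46.2 CPM.

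**Figure D5:**
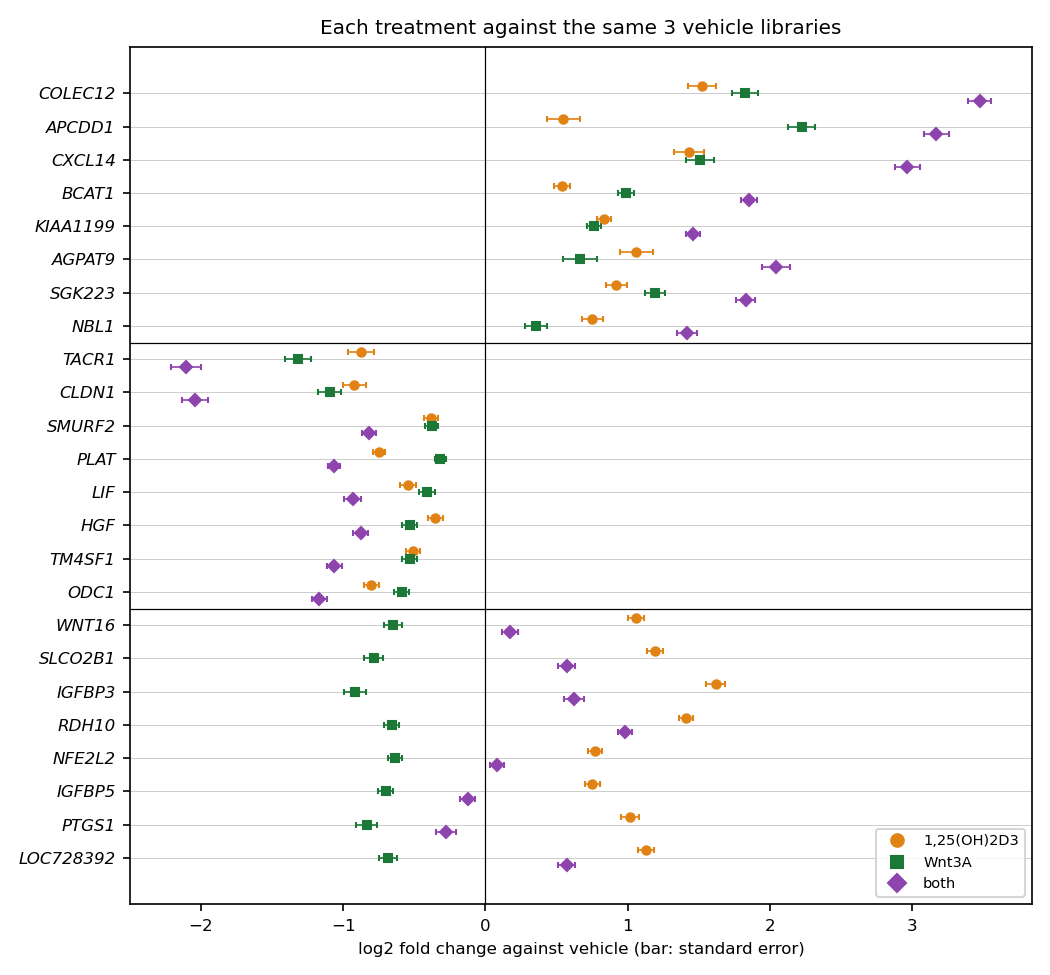
Log2 fold change against vehicle, with its standard error as a bar, for 1,25(OH)2D3 (orange circles), Wnt3A (green squares) and both agents (purple diamonds), in genes beyond both single agents upwards (top), downwards (middle) and in genes that the single agents moved in opposite directions (bottom). All 3 treatments share the same 3 vehicle libraries. For COLEC12 the 3 values are 1.52, 1.82 and 3.48, and for IGFBP5 0.75, -0.70 and -0.12.

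The interaction is how far the log2 change with both agents departs from the 2 single log2 changes added together. It was called for 18 genes, 0.147% of those tested, 14 of them above the sum. Without the block none was called by edgeR or by DESeq2, DESeq2 with the block called 5, and leaving out each library or experiment gave 0 to 28. At an unadjusted p under 0.05, 708 genes passed with the block and 354 without it by edgeR, and 226 and 162 by DESeq2. With no interaction in any gene, a share of about 0.05 would pass. The 708 are little more than that share of the 12216 tested genes, and the 354, 226 and 162 are below it. These counts therefore do not number genes with an interaction. *SLC16A6*, a monocarboxylate transporter, had 162, 153 and 177 CPM with vehicle, 59.6, 51.7 and 51.1 CPM with 1,25(OH)2D3, 221, 229 and 255 CPM with Wnt3A and 116, 110.1 and 111 CPM with both, and its interaction was 0.53 ± 0.0917 (SE, edgeR adjusted p = 0.00372). *LBH*, a transcriptional cofactor and Wnt target in development, rose from 557 ± 66.6 to 1538 ± 66 CPM with the combination, by less than the sum, with an interaction of -0.37 ± 0.0648 (SE, edgeR adjusted p = 0.00372). The chemokine gene *CXCL1* had 50.6, 43.5 and 24.8 CPM with vehicle and 46.5, 38.8 and 26.7 CPM with both, which overlap, although it fell with Wnt3A alone (-0.98), and the interaction was 0.72 ± 0.135 (SE, edgeR adjusted p = 0.00502). *WNT5A* rose by more than the sum, with an interaction of 0.35 ± 0.0651 (SE, edgeR adjusted p = 0.00502). The cholesterol exporter *ABCA1* rose from 25.5 ± 4.43 to 44.3 ± 2 CPM, against changes of 0.67 and -0.69 with the single agents, and had an interaction of 0.81 ± 0.158 (SE, edgeR adjusted p = 0.00718). *MRPS6*, a mitochondrial ribosomal protein gene, rose from 89.6 ± 8.62 to 249.8 ± 10.4 CPM, with an interaction of 0.42 ± 0.0839 (SE, edgeR adjusted p = 0.00865). *TSLP*, an epithelial-type cytokine, had a combined change of -0.35 and *SASH1*, a scaffold protein, of -0.043, with interactions of 0.61 ± 0.117 (SE, edgeR adjusted p = 0.00643) and 0.73 ± 0.135 (SE, edgeR adjusted p = 0.00502). The call of *TSLP* against vehicle was lost without combination replicate 1 (edgeR adjusted p = 0.0766) and without experiment 1 (0.0507). *AMIGO2*, an adhesion protein, rose from 133 ± 16.3 to 220.3 ± 30.4 CPM and had an interaction of 0.35 ± 0.0808 (SE, edgeR adjusted p = 0.0499). *PTGS1*, the constitutive cyclooxygenase, rose with 1,25(OH)2D3 (1.02), fell with Wnt3A (-0.84) and had -0.28 with both, with an interaction of -0.46 ± 0.0994 (SE, edgeR adjusted p = 0.026). Its fall with the combination was lost without the block (edgeR adjusted p = 0.315). *STC1*, which encodes a secreted glycoprotein hormone and was picked after its values were seen, fell with 1,25(OH)2D3 (-1.68), rose with Wnt3A (0.88) and was not called with both (426, 421 and 533 CPM with vehicle and 499, 398 and 451 CPM with both), with an interaction of 0.76 ± 0.128 (SE, edgeR adjusted p = 0.0431). Without experiment 1 it was called lower with the combination (log2 fold change -0.16, edgeR adjusted p = 0.0048).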

How the data were processed

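RNA from CCD-18Co cells was sequenced in 12 libraries, 3 for each of 4 treatments. The authors describe the deposited counts as raw reads per gene, but 78.2% to 80.9% of the values from 1 to 400 in a library were multiples of 40, so they were taken as aligned bases, divided by 40 and rounded. The submitters' processing notes name CASAVA 1.8 and hg19 (GRCh37). For the gene counting program, annotation and strand setting, a name is not given in the sources used here.

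Genes with a count of at least 10 in enough libraries (filterByExpr) were kept, and edgeR 4.0.16 (R 4.3.3, TMM scaling, robust quasi-likelihood test, prior count 0.125) was fitted on all 12 libraries with treatment and experiment as terms, with Benjamini-Hochberg adjustment over all tested genes and a threshold of 0.05. The study's methods name DESeq2 with no block, and DESeq2 1.42.0 was an alternative. Standard errors are the absolute log2 fold change divided by the square root of F. The experiment is a block because the study describes 3 independent experiments and numbers them 1 to 3 in a supplementary legend. The library labels carry the same numbers but do not say that these are the experiments. Over 6108 genes, deviations of same-numbered libraries correlated at 0.24 to 0.537 in all 18 pairs, against -0.419 to 0.0136 in 36 differently numbered pairs. These deviations were taken from the mean of each group and cancel within it. The lower range of the differently numbered pairs therefore follows in large part from the first range and is not separate support. Replicates differed by more than sampling noise (chi-square per gene 2.13 to 6.62).

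Named genes were the 12 largest rises and 12 largest falls with at least 1 CPM and 1 direction in all pairs, genes the study names, the 5 genes of each list with the smallest p, the 8 most abundant called genes, the 8 furthest beyond both agents in each direction, the 8 with the smallest interaction p and the 8 clearest among genes with opposite single effects. Others are said to be chosen after their values were seen, and some that the rule selects are not reported here. The members and lists were chosen with earlier results of these data known. Promoters came from RefSeq (GRCh38.p14), matched by symbol for 9845 of 12216 genes. Exon overlap used GENCODE lifted to GRCh37. The analysis code was tested on simulated data. Alternatives are described with their effects in the closing part. No column was left unmapped.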

Additional observations from a re-analysis of the deposited data

Results flagged for a closer look

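For 11 named genes, most of them named for a small interaction p, the interaction term was called by edgeR's quasi-likelihood test with the block over all 12 libraries (log2 scale, how far the change with both agents departs from the single changes added together, all measured against the same vehicle libraries). It was positive for *ABCA1* (0.813), *STC1* (0.764), *SASH1* (0.727), *CXCL1* (0.724), *TSLP* (0.61), *SLC16A6* (0.527), *MRPS6* (0.424), *AMIGO2* (0.348) and *WNT5A* (0.347). It was negative for *PTGS1* (-0.457) and *LBH* (-0.368). None of the 11 was called without the replicate block. No group here has the 4 libraries needed to look for a single library far from the others.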

How the results depend on the processing

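Of 200 named genes called with the combination, 188 had a value in all 20 alternatives, and 179 of these kept their call and direction in each. The other 12 were dropped by a filter or had no adjusted p in at least 1 alternative. Most named genes were selected by their values in the main fit, so they are more stable than calls in general. Of all 4082 calls, 54.7% (DESeq2 without the block) to 97.9% (edgeR with the size factors of DESeq2) were kept in the same direction. Without experiment 2 the share was 64.7%. Without the replicate block, called genes fell to 2926 (1304 lower) on 12 libraries and 2608 (1156 lower) on 6. DESeq2 with and without the block called 2575 and 2234 genes (1302 and 1185 higher, 1273 and 1049 lower). Against 1,25(OH)2D3 alone the counts were 1127 without the block, 1105 and 883 with DESeq2. Against Wnt3A alone they were 1642, 1466 and 1173, and 1747 at a threshold of 0.01. The interaction gave 0, 5 and 0, and 8 at 0.01. 1,25(OH)2D3 alone gave 1791, 1620 and 1314, and 1897 at 0.01, and Wnt3A alone 1013, 988 and 791. Genes above all other groups numbered 131, 128 and 94, and 157 at 0.01, and genes below them 49, 73 and 36, and 66 at 0.01. Leaving out 1 library or experiment gave 2732 to 3798 called genes (1463 to 1952 higher, 1269 to 1846 lower), 1142 to 1991 against 1,25(OH)2D3, 1458 to 2990 against Wnt3A, 0 to 28 interactions, 1822 to 2917 and 1020 to 1626 for the single agents, and 128 to 280 above and 51 to 166 below all other groups. The cause of these differences was not tested. Other scaling, filters and undivided values gave 3810 to 4122. Of genes not called, *SASH1* changed sign without combination replicate 1 (0.026, range -0.0746 to 0.026), and *STC1* without vehicle replicate 3 (0.0400), combination replicate 3 (0.0439) or experiment 3 (0.0746, range -0.16 to 0.0746). Depth limits genes under about 1 CPM, for which a library held only a few reads.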
